A study of Rattus norvegicus with 60 samples.

Results

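The genes described here encode the enzymes and transporters of glycolysis and the core of the cellular response to low oxygen. They were 35 genes chosen by name, from the hexokinases to lactate dehydrogenase and from Hif1a to its target genes. A gene was measured where a probe set of the array carried that gene symbol and no other, which held for 28 of the 35 genes, each with 1 probe set among 36685. Tpi1, Gapdh, Eno1, Pkm and Bnip3 lay on probe sets that list several symbols, and Hk1 and Pgam1 were matched to no probe set in the annotation used here, so these 7 genes have no value below.

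The study took tissue from inside the knee joint and popliteal lymph nodes, which drain the lower hind limb, from 20 rats with haemophilia A, the bleeding disorder caused by lack of coagulation factor VIII. All rats carried this disorder, controls included, so no group represents normal clotting. The sources used here do not give their strain, sex or age. In 11 rats a bleed had been induced in the left knee 24 h earlier, and the left knee and node form the bled groups and the right knee and node the contralateral groups (n = 11 each). The other 9 rats had a sham procedure and gave right-sided tissue only, with 9 nodes and 7 knees, since the remaining pair of sham knees held too little RNA. Every comparison with the bled side therefore also compares left with right. The labels call the bled knee injured, and what the injury did and what the blood did cannot be told apart.

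Values are the deposited log2 expression values made by the RMA method, on which a difference of 1 is a 2-fold difference, and differences are given ± SE. A gene was called where limma's test, adjusted over all probe sets by the Benjamini-Hochberg method, gave an adjusted p under 0.05. The array medians lay between 5.64 and 5.94, and a gene near that level is dim. Marker genes matched the labelled tissues: the mean of the B cell markers was 10.48 to 11.15 in the nodes, while the mean of the synovial fibroblast markers was 10.10 to 11.08 in the knees and 8.44 to 9.14 in the nodes. Skeletal muscle markers varied widely among the knees of every group (mean 5.45 to 11.23 in bled, 5.70 to 11.38 in contralateral and 5.61 to 11.31 in sham knees). In bulk samples, fewer cells of a type and less RNA per cell cannot be told apart.

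Glycolysis splits glucose into pyruvate in the cytosol and yields ATP without oxygen, and lactate dehydrogenase turns pyruvate into lactate to keep the pathway running. Hypoxia-inducible factor 1 is a transcription factor whose alpha subunit, encoded by Hif1a, is hydroxylated in oxygen by the prolyl hydroxylases of the Egln genes and then degraded. When oxygen falls, the subunit is stabilised and binds short motifs beside genes for glucose uptake, glycolysis, lactate export and mitochondrial clearance. Activated macrophages and neutrophils also rely on glycolysis, and inflammatory signals raise the Hif1a transcript as well as the protein. The transcript levels measured here do not report the amount of the protein.

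The promoters of 4 of the genes are shown because their letters and their behaviour in the bled knee differ. Each window holds 250 bases before and 50 after the transcription start in the RefSeq annotation of the rat assembly GRCr8, on the plus strand. Capitals mark ACGTG and GCGTG, the core letters of the hypoxia response element, on either strand, so that the complements CACGT and CACGC are capitalised too. The window of Ldha, which rose in the bled knee, is chr1:106507842-106508141, and that of Slc2a1, which rose too, is chr5:138002272-138002571. Ankrd37 (chr16:53001257-53001556) did not pass the test, but it was dim in all knees, which limits that result. Slc16a3 (chr10:106712078-106712377) had the largest rise among the transporters.
Ldha: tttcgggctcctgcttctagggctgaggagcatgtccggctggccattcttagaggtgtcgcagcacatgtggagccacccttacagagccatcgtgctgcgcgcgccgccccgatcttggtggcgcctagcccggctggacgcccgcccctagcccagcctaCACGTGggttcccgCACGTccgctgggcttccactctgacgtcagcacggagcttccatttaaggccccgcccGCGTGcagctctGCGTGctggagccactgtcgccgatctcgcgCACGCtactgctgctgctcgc
Slc2a1: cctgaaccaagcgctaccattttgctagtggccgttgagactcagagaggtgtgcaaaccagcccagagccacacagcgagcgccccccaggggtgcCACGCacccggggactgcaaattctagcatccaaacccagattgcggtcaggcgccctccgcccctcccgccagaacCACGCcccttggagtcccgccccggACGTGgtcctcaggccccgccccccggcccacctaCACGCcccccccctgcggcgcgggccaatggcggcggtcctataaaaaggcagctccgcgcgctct
Ankrd37: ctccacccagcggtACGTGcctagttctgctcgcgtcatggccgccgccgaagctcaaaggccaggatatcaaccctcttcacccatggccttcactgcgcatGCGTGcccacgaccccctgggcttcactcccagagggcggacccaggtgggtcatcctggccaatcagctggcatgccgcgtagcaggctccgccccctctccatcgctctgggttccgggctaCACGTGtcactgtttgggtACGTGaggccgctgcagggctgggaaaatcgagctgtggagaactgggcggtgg
Slc16a3: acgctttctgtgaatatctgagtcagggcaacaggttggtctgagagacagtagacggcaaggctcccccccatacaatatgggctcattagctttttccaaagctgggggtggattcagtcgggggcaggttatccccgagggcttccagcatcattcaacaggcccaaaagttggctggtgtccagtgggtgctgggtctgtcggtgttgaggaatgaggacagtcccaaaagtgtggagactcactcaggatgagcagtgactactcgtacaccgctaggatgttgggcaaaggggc

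The Ldha window held 6 matches, Ankrd37 held 5 and Slc2a1 held 4, while the Slc16a3 window held 0, which says only that these letters are not in these 300 bases. In Ldha, CACGTG, which reads as ACGTG on both strands and is also the E-box of other transcription factors, begins 87 bases before the start. Windows were found for 31 of the 35 genes, 35 windows in all. ACGTG was in 60% of those windows against 19.3% of 33469 rat promoter windows, GCGTG in 48.6% against 29.7%, and CACGTG in 17.1% against 6.42%. Counted by gene, ACGTG was found for 21 of 31. The genes were chosen by name, known targets of the hypoxia factor among them, so these shares test nothing about the bleed. Against the calls described next, ACGTG was in the windows of 7 of the 11 genes with a window that were higher in the bled knee than contralaterally, and in those of 8 of the 11 that were not called.

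In the bled knee, 13 of the 28 measured genes were higher than in the contralateral knee, 3 were lower and 12 were not called. Over all probe sets, 34.7% were called in this comparison, 19.5% higher and 15.2% lower, and over the 18166 genes with a probe set of their own 49.2% were called, 25.9% higher and 23.3% lower, beside 46.4% and 10.7% of the measured genes of this group. All 4 transporters of glucose and lactate, both measured hexokinases, Pfkl, Pgk1, Ldha and Hif1a were among the higher genes, and Ldhb, Pfkfb3 and Bnip3l were the lower ones. The difference reached 2-fold in 8 of the higher genes and in Ldhb (3.27% of all probe sets were called and at least 2-fold higher, 3.52% lower). For 7 genes every bled knee lay above every contralateral knee and for Ldhb every bled knee lay below, where 7.9% and 5.61% of all probe sets had ranges apart in these directions. The median difference over the 28 genes was 0.31, against −0.00 over all 18166 genes. The genes were chosen with earlier results of these data known, so these shares and medians are descriptive and no independent test of the group.

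**Figure D1:**
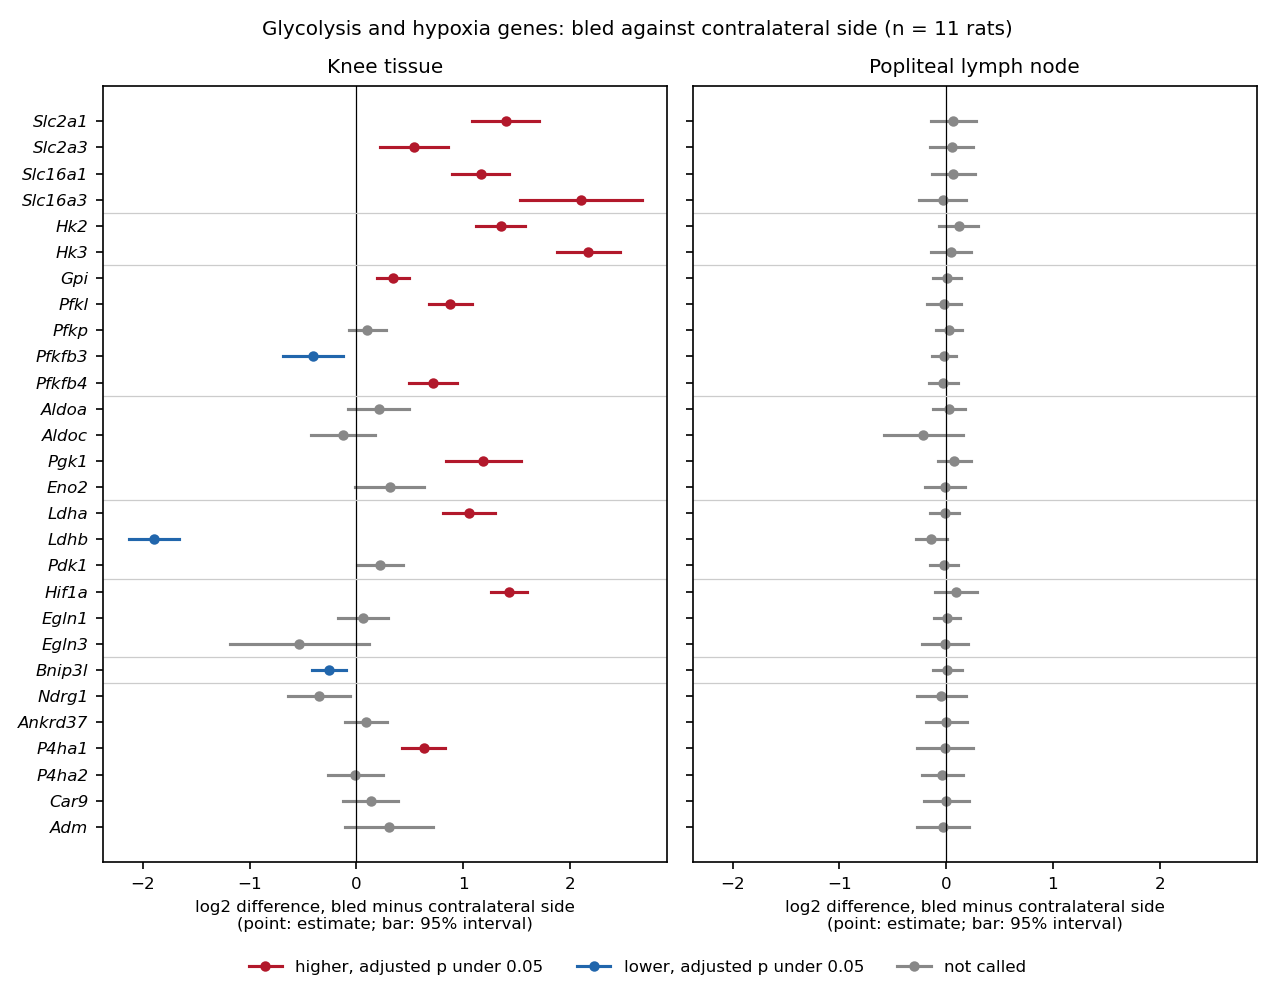
Difference between the bled and the contralateral side in log2 units for the 28 measured genes, in the knee and in the node, with 1 row per gene, points for the difference of group means and bars for its 95% interval (n = 11 rats), coloured where called higher (red) or lower (blue). The knee spreads from Ldhb at −1.90 to Hk3 at 2.17, whereas all node differences lie between −0.21 and 0.12.

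The glucose transporters Slc2a1 and Slc2a3 rose together with Slc16a1 and Slc16a3, which carry lactate across the membrane. Of 9 other sugar transporter genes, described further below, 1 was higher and 5 were lower. Slc2a1, the widespread glucose transporter GLUT1, was at 10.12 to 12.14 in the bled knees (median 10.70), at 9.07 to 9.59 in the contralateral knees (9.34) and at 8.60 to 9.27 in the sham knees (8.85). No bled knee reached as low as any other knee, and the bled level was 2.63-fold that of the contralateral side (95% interval 2.12 to 3.28, adjusted p = 6.72e-09). In the nodes Slc2a1 was at 9.41 to 9.96 on the bled side, 9.43 to 9.80 contralaterally and 8.62 to 9.91 after sham, so these groups overlapped. Slc2a3, the high-affinity transporter GLUT3 of neurons and leukocytes, ranged from 8.67 to 10.54 (median 8.89) in bled, 8.18 to 9.01 (8.47) in contralateral and 8.17 to 8.85 (8.54) in sham knees. These ranges overlapped, yet the bled side was higher in 11 of 11 rats, by 1.45-fold on average (1.17 to 1.81, adjusted p = 0.00583). Its node values lay between 7.00 and 8.33 in all groups.

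Slc16a3, the transporter MCT4 that exports lactate from glycolytic cells, had the largest difference of the 4. It lay between 8.66 and 10.94 in the bled knees (median 9.55), between 6.91 and 8.58 in the contralateral knees (7.31) and between 6.71 and 9.15 in the sham knees (7.30). The bled knees were clear of the contralateral knees but not of the highest sham knee, and the side difference was 4.29-fold (2.89 to 6.37, adjusted p = 2.06e-07). Its nodes spanned 6.50 to 7.74 over the 3 groups. Slc16a1, the related transporter MCT1, was at 9.68 to 10.33 (median 9.95) in bled, 8.24 to 9.39 (8.79) in contralateral and 8.16 to 9.53 (8.91) in sham knees. The bled knees stood above all the others, with a 2.24-fold side difference (1.86 to 2.70, adjusted p = 1.12e-08), while its nodes ran from 7.54 to 8.89.

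**Figure D2:**
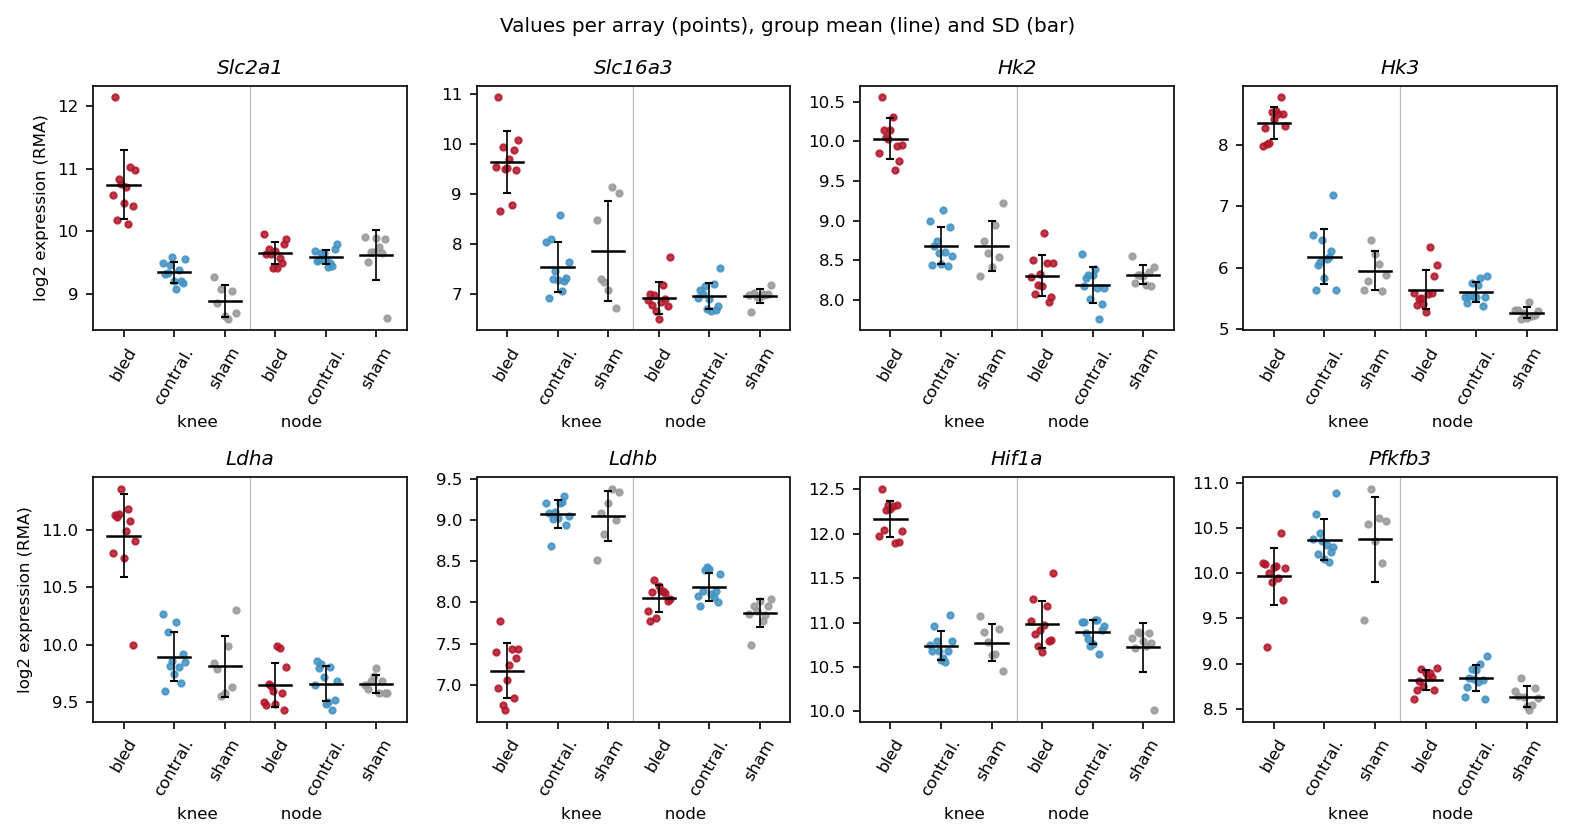
Log2 expression of selected genes in every array, with 1 point per array, the 6 groups of knee and node on the horizontal axis, and a line and bar for the group mean and SD. Bled knees stand apart from contralateral knees for Slc2a1, Slc16a3, Hk2, Hk3 and Hif1a (above) and Ldhb (below), and the node groups overlap for each of these genes.

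Both measured hexokinases, which trap glucose in the cell by phosphorylation, were higher in the bled knee. Hk3, the form typical of myeloid cells, was at 7.99 to 8.78 in the bled knees (median 8.42), 5.64 to 7.19 in the contralateral knees (6.15) and 5.62 to 6.46 in the sham knees (5.89). Its bled knees lay clear of every other knee, and the 4.50-fold difference (3.67 to 5.52, adjusted p = 1.58e-13) was the largest of all 28 genes. Its level in the other knees was close to the array medians. Hk2, the inducible form of muscle, fat and activated cells, spanned 9.64 to 10.56 (median 10.03) in bled, 8.43 to 9.14 (8.61) in contralateral and 8.30 to 9.22 (8.59) in sham knees. Again no bled knee overlapped another group, and the difference was 2.55-fold (2.18 to 2.98, adjusted p = 1.56e-11). In the nodes Hk2 was at 7.98 to 8.85 on the bled side, 7.76 to 8.58 contralaterally and 8.18 to 8.56 after sham.

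The phosphofructokinase step, which commits glucose to glycolysis, was split. Pfkl, the liver-type subunit, was at 9.50 to 10.39 in the bled knees (median 9.79), 8.69 to 9.46 in the contralateral knees (8.87) and 8.34 to 8.78 in the sham knees (8.71), and the bled knees were above all the others. Its side difference was 1.84-fold (1.60 to 2.11, adjusted p = 8.23e-09), and its nodes lay between 8.53 and 9.45. The platelet-type subunit Pfkp had bled and contralateral knees at almost the same medians (9.21 and 9.20), a difference of 0.10 ± 0.09 (adjusted p = 0.428). The step is controlled in part by the bifunctional enzymes that make and remove fructose 2,6-bisphosphate, the activator of phosphofructokinase, and their genes moved apart. Pfkfb4 rose by 0.72 ± 0.11 (adjusted p = 2.26e-06) and was higher on the bled side in 10 of 11 rats. Pfkfb3 was at 9.18 to 10.45 (median 10.06) in bled, 10.13 to 10.89 (10.31) in contralateral and 9.48 to 10.94 (10.55) in sham knees. It was 1.33-fold lower in the bled knee (1.09 to 1.61, adjusted p = 0.0182), with the bled side lower in 10 of 11 rats and overlapping ranges. Gpi, the isomerase upstream of this step, was already bright and rose by 0.34 ± 0.07 (adjusted p = 0.00026) in 11 of 11 rats.

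Among the enzymes of lower glycolysis, only Pgk1 of the 4 measured was called. Pgk1 encodes phosphoglycerate kinase, the first ATP-yielding step, and lay at 10.36 to 11.29 (median 10.87) in bled, 9.05 to 10.51 (9.64) in contralateral and 8.98 to 10.56 (9.39) in sham knees. The groups overlapped at their edges, and the side difference was 2.28-fold (1.79 to 2.91, adjusted p = 8.66e-07), positive in 11 of 11 rats by 0.30 to 2.24. Its nodes lay between 9.24 and 10.24. Aldoa, the main muscle aldolase, differed by 0.21 ± 0.14 (adjusted p = 0.292) and Eno2, the neuron-type enolase, by 0.31 ± 0.16 (adjusted p = 0.146), which was 0.17 ± 0.11 without the bled knee of rat K2. Aldoc, the brain-type aldolase, was at 6.17 to 7.78 (median 6.47) in bled, 6.18 to 7.37 (6.78) in contralateral and 5.74 to 6.30 (5.87) in sham knees. The sides of the bled rats did not differ beyond their spread (−0.12 ± 0.15, adjusted p = 0.609, and −0.24 ± 0.12 without the bled knee of K2).

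The subunits of lactate dehydrogenase moved in opposite directions. Ldha, whose subunit favours making lactate from pyruvate, was at 10 to 11.36 in the bled knees (median 11.08), 9.60 to 10.27 in the contralateral knees (9.85) and 9.56 to 10.30 in the sham knees (9.79). The lowest bled value, that of rat K10, lay within the other groups and the next, 10.76, above them, and Ldha was 2.08-fold higher on the bled side (1.75 to 2.46, adjusted p = 1.2e-08), by 0.08 to 1.53 in the single rats. Ldhb, whose subunit is typical of oxidative tissues, was at 6.69 to 7.77 (median 7.24) in bled, 8.68 to 9.29 (9.08) in contralateral and 8.52 to 9.38 (9.08) in sham knees. Every bled knee was below every other knee, and Ldhb was 3.73-fold lower than contralaterally (3.17 to 4.39, adjusted p = 2.13e-14), the largest fall of the 28 genes. In the nodes Ldha lay at 9.43 to 9.99 and Ldhb at 7.48 to 8.43 over the 3 groups. Pdk1, the kinase that shuts pyruvate out of the mitochondrion, differed by 0.22 ± 0.11 and was not called (adjusted p = 0.106).

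Hif1a, the alpha subunit of the hypoxia factor, rose in every bled rat, by 0.82 to 1.83. It was at 11.90 to 12.51 in the bled knees (median 12.27), 10.56 to 11.09 in the contralateral knees (10.68) and 10.46 to 11.07 in the sham knees (10.78). The bled knees were clear of all the others, and the 2.69-fold difference (2.40 to 3.03) had an adjusted p of 8.74e-15. Its nodes were at 10.67 to 11.56 on the bled side, 10.65 to 11.03 contralaterally and 10.01 to 10.89 after sham. The hydroxylase genes that mark its protein for degradation, Egln1 and Egln3, were not called. Egln1 differed by 0.06 ± 0.11 (adjusted p = 0.772). Egln3, itself a well-known target of the factor, was at 6.93 to 10.59 (median 7.82) in bled, 7.45 to 9.55 (8.46) in contralateral and 6.98 to 8.87 (8.0) in sham knees. Its difference of −0.53 ± 0.32 (adjusted p = 0.223) ran from −2.53 to 2.50 in the single rats, and its nodes lay between 7.15 and 8.57.

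Of the 6 other target genes of the factor among the 28, P4ha1, a subunit of the collagen prolyl hydroxylase, was the only called one. P4ha1 was at 10.65 to 11.64 (median 11.00) in bled, 10.15 to 10.80 (10.32) in contralateral and 10.10 to 10.56 (10.44) in sham knees. It rose 1.55-fold (adjusted p = 3e-06) in 11 of 11 rats, with bled and contralateral ranges that overlapped slightly, and its nodes lay between 8.61 and 9.79. P4ha2 differed by −0.01 ± 0.13, the stress-response gene Ndrg1 by −0.35 ± 0.14 (adjusted p = 0.0573), Adm, the gene of the vasodilator adrenomedullin, by 0.31 ± 0.20, and Car9, the carbonic anhydrase that acidifies the outside of hypoxic cells, by 0.13 ± 0.13. Ndrg1 was at 9.92 to 11.74 (median 10.49) in bled, 10.44 to 11.34 (10.91) in contralateral and 10.22 to 10.97 (10.59) in sham knees, with nodes at 9.13 to 10.48. Its fall was called with rat as a replicate block (adjusted p = 0.0437), with quantile normalization (−0.44, adjusted p = 0.014) and with array weights (adjusted p = 0.019). Car9, at 5.27 to 6.33 over all knees, and Ankrd37, at 5.33 to 6.32, lay near the array medians, and Ankrd37 differed by 0.09 ± 0.09 (adjusted p = 0.551). Bnip3l, which marks mitochondria for removal, was at 9.35 to 9.88 (median 9.55) in bled, 9.56 to 10.06 (9.79) in contralateral and 9.06 to 9.81 (9.67) in sham knees, and at 9.12 to 9.82 in the nodes. It was 1.19-fold lower in the bled knee than contralaterally (adjusted p = 0.0103), in 10 of 11 rats, with overlapping ranges.

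Cell type markers and cell cycle genes were also compared between the bled and the contralateral knees. Of 17 measured neutrophil markers, 12 were higher and 1 lower in the bled knee than contralaterally, and their mean was 7.05 to 8.86 in bled, 5.85 to 7.93 in contralateral and 5.68 to 5.97 in sham knees. T cell markers were higher for 14 of 15 and lower for 1, with means of 7.05 to 7.64 against 5.86 to 6.69 contralaterally, and all 18 cell cycle genes were higher. Macrophage markers were split, with 8 higher and 6 lower of 17 and means of 9.22 to 9.85 in bled, 9.28 to 9.75 in contralateral and 8.79 to 9.53 in sham knees. All 14 adipocyte markers were lower, with means of 8.15 to 9.49 in bled, 10.89 to 11.52 in contralateral and 10.82 to 11.46 in sham knees, as were 9 of 10 endothelial markers and 14 of 21 synovial fibroblast markers, while another 3 of those 21 were higher. Of 10 B cell markers 3 were higher and 1 lower, and of 7 erythroid markers 0 were higher and 1 lower. The part of these cell types in the values of the glycolysis and hypoxia genes was not tested.

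Against the sham knees of other rats, the bled knees had 15 genes higher and 2 lower of the 28. The share called was 38.7% of all probe sets, 19.9% higher and 18.8% lower. Of the 18166 genes with a probe set of their own it was 50.5%, 27.3% higher and 23.2% lower. This comparison uses the same bled arrays as the one with the contralateral side and adds no separate evidence on them. Slc2a1 was 3.63-fold higher (1.86 ± 0.18, adjusted p = 3.55e-10), Hk3 5.28-fold (2.40 ± 0.16, adjusted p = 4.38e-13) and Slc16a3 3.45-fold (1.79 ± 0.32, adjusted p = 2.49e-05). Hif1a rose by 1.4 ± 0.09 and Ldha by 1.14 ± 0.14, and Ldhb fell by 1.88 ± 0.13 on the log2 scale. Aldoc (0.64 ± 0.17, adjusted p = 0.00226) and Eno2 (0.65 ± 0.18, adjusted p = 0.00453) were called here and not against the contralateral side. Bnip3l was called only against the contralateral side, and against sham its difference was −0.05 (adjusted p = 0.731). Pfkfb3, the other lower gene, was at −0.41 (adjusted p = 0.0343), and this call was lost with arrays centred on their medians (−0.33, adjusted p = 0.107), with these groups alone (adjusted p = 0.0715) and without the sham knee of C5 (adjusted p = 0.0503). Aldoa gained a call with centred arrays (0.42, adjusted p = 0.0446) and with skeletal muscle markers as a covariate (0.51, adjusted p = 7.79e-05). Pdk1 gained one with centred arrays (0.36, adjusted p = 0.0243), with that covariate (0.31, adjusted p = 0.0474) and with dim probe sets left out (0.28, adjusted p = 0.0431). The difference reached 2-fold in 9 of the higher genes and in Ldhb (4.03% and 3.6% of all probe sets). Ranges were apart for 8 genes above (9.52% of all probe sets) and for Ldhb below (5.11%).

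The bled knee of rat K2 stood at the top for most of these genes. It was the highest of the 11 bled knees for 22 of 28 genes (78.6%), whereas it was the highest for 11.7% of all 18166 genes and each other bled knee for 6.62% to 10.8%. The mean over the 28 genes was 10.03 in this knee and 9.11 to 9.54 in the other 10 bled knees. Egln3 was at 10.59 in K2 and at 6.93 to 8.23 in the others, Slc2a3 at 10.54 against 8.67 to 9.18, and Slc2a1 at 12.14 against 10.12 to 11.03. Ndrg1 (11.74 against 9.92 to 10.64) and Eno2 (10.76 against 8.87 to 9.65) were also set apart. The contralateral knee of K2 was the highest of its group for 2 of the 28 genes, Pfkp and P4ha1, and the lowest for 4, among them Slc16a3 (6.91).

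**Figure D3:**
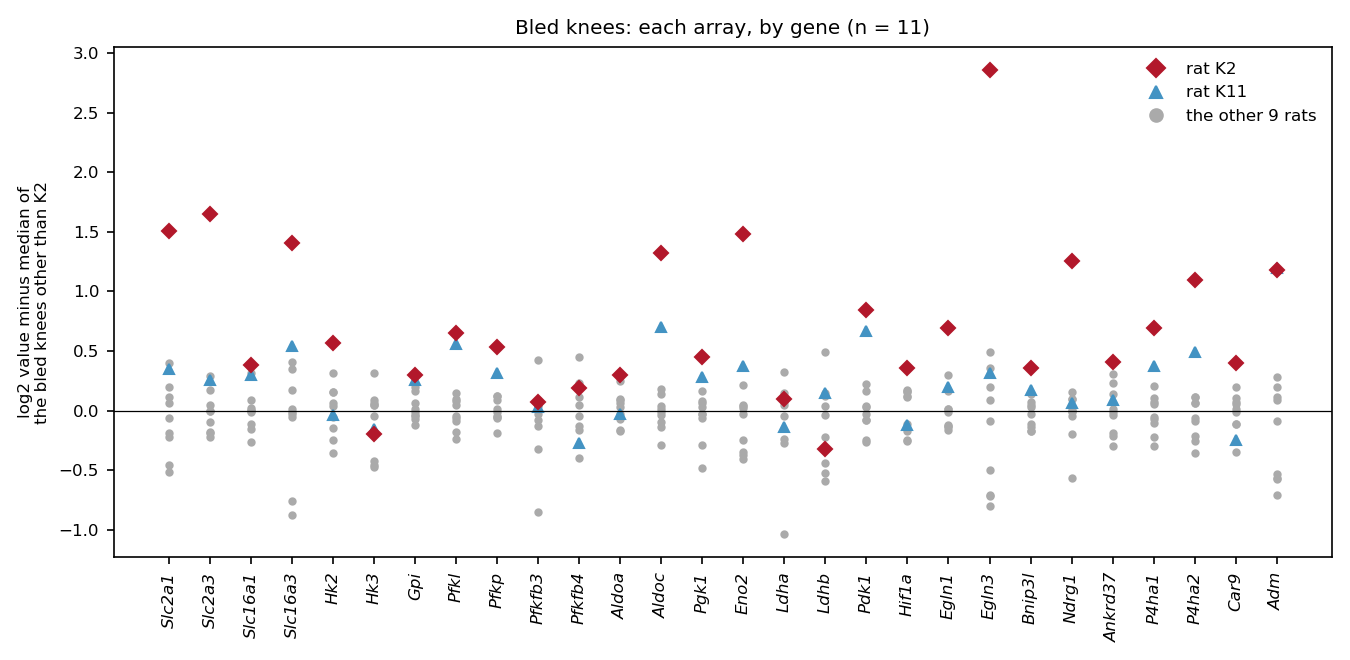
Each bled knee's log2 level minus the median of the 10 bled knees other than that of K2, for each of the 28 genes, with 1 point per rat and rats K2 and K11 marked. K2 is the highest point for 22 genes and reaches furthest for Egln3.

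The same K2 knee had the highest means of the neutrophil markers (8.86, next 7.99) and of the erythroid markers (7.96, next 7.21) and a macrophage mean of 9.22, the lowest of the bled knees. Their part in the K2 values was not tested. Without this array, an alternative chosen after its values were seen, all 13 higher genes were still called against the contralateral knee, and 5 were lower in place of 3. The added ones were Egln3 (−0.81, adjusted p = 0.00675) and Ndrg1 (−0.47, adjusted p = 0.000796). Of all 36685 probe sets, 7044 were higher and 5508 lower without this array. P4ha2 was then lower than in the sham knees too (−0.41, adjusted p = 0.00382). With all arrays kept, limma also called that fall with quantile normalization (−0.43, adjusted p = 0.0151) and with array weights (−0.37, adjusted p = 0.0435). The side difference moved by over 1.5 times for 8 of the 28 genes, none of them called with all arrays. Besides Egln3, Eno2 and Aldoc, these were Pfkp (0.06 in place of 0.10), Adm (0.20 in place of 0.31), Ankrd37 (0.05 in place of 0.09), P4ha2 (−0.11 in place of −0.01) and Egln1, which changed sign (−0.00 in place of 0.06). Among the contralateral knees, that of K10 stood apart with a neutrophil mean of 7.93 (the others at most 6.25) and the highest contralateral Hk3 (7.19). It also had the highest contralateral means of the cell cycle genes (8.04, next 6.53) and of the erythroid (7.81, next 6.99), T cell (6.69, next 6.32) and macrophage markers (9.75, next 9.61). Its adipocyte mean was neither the highest nor the lowest. What set this knee apart was not tested. Without the K10 array the counts were 13 higher and 4 lower, with Ndrg1 added (−0.40, adjusted p = 0.0298). Of all 36685 probe sets, 7035 were higher and 5587 lower without it.

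Because muscle is rich in glycolytic transcripts, each gene was also fitted on the mean of 21 skeletal muscle markers over the 29 knee arrays, with the 3 groups kept in the model. Levels of 5 of 28 genes rose with the muscle mean and 0 fell (2.34% of all probe sets were called, 2.07% rising and 0.27% falling). Of the 18166 genes with a probe set of their own, 3.32% rose and 0.237% fell. Aldoa rose by 0.14 ± 0.02 per unit of the muscle mean (adjusted p = 8.89e-06), Pgk1 by 0.15 ± 0.03 (adjusted p = 0.00273), Egln3 by 0.24 ± 0.06 (adjusted p = 0.0259), Egln1 by 0.10 ± 0.02 (adjusted p = 0.00273) and Hk2 by 0.08 ± 0.02 (adjusted p = 0.0476). Without the sham knee of C5 the calls for Egln3 (adjusted p = 0.0568) and Hk2 (adjusted p = 0.0728) were lost, and that for Hk2 also without the bled knee of K2 (adjusted p = 0.0854) or the contralateral knee of K10 (adjusted p = 0.0542). Egln3 had like slopes in the groups taken apart (0.25 in bled, 0.23 in contralateral and 0.22 in sham knees), whereas those of Aldoa were 0.06, 0.20 and 0.18, a difference that was not tested. The slope of Slc16a3 (0.19 ± 0.05, adjusted p = 0.0545) was not called, but it was with rat as a replicate block (0.20, adjusted p = 0.0493) and in the sham knees alone (0.39, adjusted p = 0.0482). The muscle mean itself was lower in the bled than in the contralateral knees at the median (6.57 against 9.56). Of its 21 markers, 0 had a positive difference (median −1.95), and 1 was called lower. The SD of the muscle mean was 1.90 in bled and 1.80 in contralateral knees. With the muscle mean as a covariate, Aldoa was higher in the bled knee than contralaterally (0.44 ± 0.09, adjusted p = 0.000152), and Ndrg1 was lower (−0.41, adjusted p = 0.0318).

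**Figure D4:**
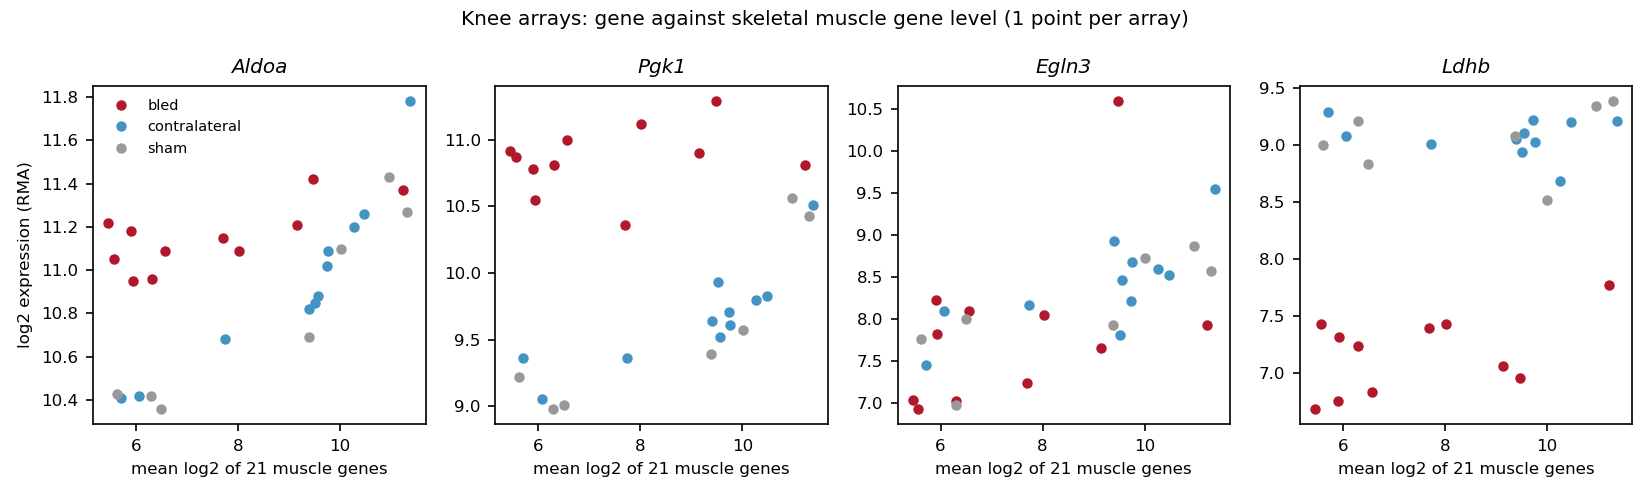
Log2 level of selected genes against the mean of 21 skeletal muscle markers, with 1 point per knee array coloured by group. The slopes within contralateral, sham and bled knees are 0.20, 0.18 and 0.06 for Aldoa and 0.17, 0.24 and 0.03 for Pgk1, of which only that of Aldoa in contralateral knees passed the test within its group alone, and their difference was not tested.

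The contralateral knee of the bled rats was compared with the sham knee to ask whether the joint without an induced bleed differed. Among all probe sets 1.82% were called (0.984% higher and 0.831% lower). Among the 18166 genes with a probe set of their own 2.44% were (1.68% higher and 0.754% lower). Of the 28 genes, 1 was called. That gene was Aldoc, with a median of 6.78 in the contralateral and 5.87 in the sham knees and ranges that overlapped only between 6.18 and 6.30. It was 1.70-fold higher (1.34 to 2.15, adjusted p = 0.0105). Slc2a1 differed by 0.46 ± 0.18 and was called in fits of these groups alone (adjusted p = 0.0282) and without the bled knee of K2 (adjusted p = 0.0367), but not in the fit of all 3 groups. The median difference over the 28 genes was 0.05.

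In the popliteal nodes, the bled and the contralateral side did not separate for any of the 28 genes. limma called 0 of 28 genes, and 0% of all probe sets, and 0 of the 28 had an unadjusted p under 0.05, against 2.34% of all probe sets. Against sham, Hk3 was higher in the bled-side nodes (0.38 ± 0.10, adjusted p = 0.0215) and was the only called gene of the 28. The share called was 4.26% of all probe sets, 1.91% higher and 2.34% lower. Of the 18166 genes with a probe set of their own it was 5.48%, 3.02% higher and 2.46% lower. Hk3 was at 5.28 to 6.34 (median 5.58) on the bled side, 5.38 to 5.87 (5.53) contralaterally and 5.17 to 5.45 (5.26) after sham, all dim and overlapping. The call for Hk3 was lost with these groups alone (adjusted p = 0.0609), and Pgk1 (0.26) was called as well with rat as a replicate block (adjusted p = 0.049). Between contralateral and sham nodes, 5.03% of all probe sets were called, 2.22% higher and 2.81% lower. Of the 18166 genes with a probe set of their own 6.74% were, 3.71% higher and 3.03% lower. In the contralateral nodes 3 of the 28 genes were higher than in sham nodes and 0 lower. They were Hk3 (0.33 ± 0.10, adjusted p = 0.04), Pfkfb3 (0.20 ± 0.06, adjusted p = 0.0416) and Ldhb (0.32 ± 0.08, adjusted p = 0.0147). Without the sham nodes of C2 and C9, only Ldhb was called, with Hk3 at an adjusted p of 0.0733 and Pfkfb3 at 0.0809. Ldhb was at 7.96 to 8.43 in those nodes and at 7.48 to 8.04 after sham, and both sides of the bled rats are set against the same sham nodes here.

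The difference between the knee's and the node's side difference was then tested in all 60 arrays. Among all probe sets 27.8% were called, 15.5% positive and 12.4% negative. Among the 18166 genes with a probe set of their own 41.7% were, 22.1% positive and 19.6% negative. Of the 28 genes, 13 were positive and 3 negative. The 16 genes were those called between the knees. Slc16a3 differed by 2.13 ± 0.30, Hk3 by 2.13, Hif1a by 1.34, Slc2a1 by 1.33 ± 0.19 and Ldhb by −1.76. The call for Slc2a3 (0.49, adjusted p = 0.0417) was lost without the bled knee of K2 (adjusted p = 0.0682), without the contralateral knee of K10 (adjusted p = 0.0648) and with quantile normalization (0.41, adjusted p = 0.0895). Without the bled knee of K2, 5 genes were negative, with Egln3 (−0.79, adjusted p = 0.0134) and Ndrg1 (−0.42, adjusted p = 0.0396) added. With arrays centred on their medians, the calls for Pfkfb3 (−0.36, adjusted p = 0.0725) and Bnip3l (−0.24, adjusted p = 0.116) were lost.

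The tissues also differed without a bleed. Of the 28 genes, 13 were higher in the sham knee than in the sham node and 3 lower. The share called was 52.5% of all probe sets, 24.3% higher and 28.3% lower. Of the 18166 genes with a probe set of their own it was 63.2%, 32.1% higher and 31.1% lower. P4ha2 was 3.73-fold higher in the knee (1.90 ± 0.13, adjusted p = 2.53e-19), Pfkfb3 3.34-fold (adjusted p = 3.99e-19) and P4ha1 2.87-fold. P4ha1 and P4ha2 encode alternative subunits of an enzyme that collagen synthesis needs. Ldhb (2.27-fold) and Eno2 (2.23-fold) followed. Aldoc was 1.93-fold and Slc2a1 1.66-fold lower in the knee, and Pfkp was lower by 0.25 on the log2 scale. The call for Pfkp was lost with arrays centred on their medians (adjusted p = 0.077) and with quantile normalization (adjusted p = 0.198). The median of Slc2a1 was 8.85 in sham knees and 9.67 in sham nodes, but 10.70 in bled knees and 9.63 in the nodes of the bled side. For Ldhb the order was the reverse, with 9.08 and 7.89 after sham and 7.24 and 8.12 on the bled side, and the bled knee was not tested against the bled-side node.

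**Figure D5:**
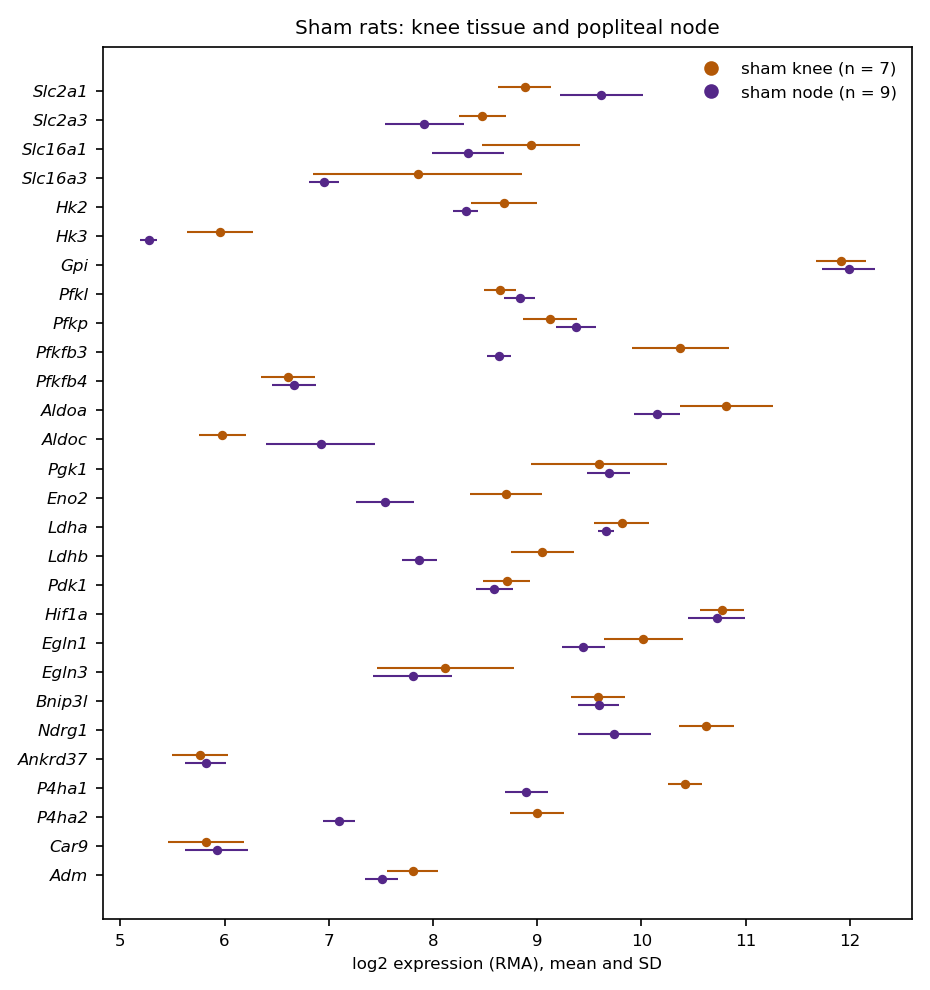
Log2 level of each of the 28 genes in the sham knees (n = 7) and the sham nodes (n = 9), with points for the mean and bars for the SD. P4ha2, Pfkfb3 and P4ha1 lie higher in the knee, and Aldoc and Slc2a1 lie lower.

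Other genes of sugar metabolism and of the hypoxia response, from lists made by pathway, are given by their counts in the comparison of bled and contralateral knees. The pentose phosphate pathway, which branches from glycolysis to make NADPH and ribose, had 7 of 7 genes higher (median 0.42), led by Taldo1 (1.34), H6pd (0.78) and Tkt (0.77). Of 16 further glycolysis genes, 3 were higher and 7 lower, and the lower ones included the muscle-type genes Pfkm (−1.80) and Pgam2 (−1.77) and Pfkfb1 (−1.95). The sugar transporter list had 1 of 9 higher and 5 lower, led by the insulin-responsive Slc2a4 (−2.55) of fat and muscle. Of 14 glycogen genes 3 were higher and 5 lower, and of 6 gluconeogenesis genes 2 were higher and 1 lower, Pck1 (−3.28), which is strongly expressed in fat. Pyruvate entry into mitochondria had 1 of 12 higher, Pdk3 (0.52), and 1 lower, Pdk2 (−1.33).

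Of 14 further genes of the hypoxia factor pathway, 5 were higher, led by Cul2 (0.67), part of the ligase that degrades the alpha subunit, and 2 lower, with the sister subunit Epas1 at −0.62. Of 30 other known target genes, 13 were higher and 7 lower (median 0.11). The largest rises were those of Cxcr4 (2.38), Angptl4 (2.28), Nfil3 (1.93) and Tfrc (1.86). Shares of these lists can be read against the 25.9% of all genes that were higher and the 23.3% that were lower, and the part of muscle and fat, whose marker levels are given above, was not tested. In the node, 0 genes of these 8 lists were called between the sides.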

How the data were processed

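Tissue from inside the knee (29 arrays) and popliteal lymph nodes (31 arrays) were each measured on 1 Affymetrix rat gene array per sample. The authors deposited log2 values for 36685 probe sets, between 1.62 and 14.03. Per the submitters' processing notes, they were computed by RMA with version 1.4.46 of Affymetrix Expression Console. Not given in the sources used here were the options of RMA, the scan batches, and whether both tissues were normalized together. The array annotation listed 19086 probe sets, 18511 of them with 1 symbol and 575 with several, and 17599 were not listed, which left 18166 genes. The number of arrays, 7 to 11 per group, limits the precision.

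Groups, sides and rats came from the sample labels. With R 4.3.3 and limma 3.58.1, the 3 groups of a tissue were fitted to all probe sets without a filter, and the contrasts across tissues used all 60 arrays in 6 groups. p-values were adjusted by the Benjamini-Hochberg method over all probe sets, with calls under 0.05. The fit of the 3 knee groups was tested on simulated knee values drawn without pairing of rats. That does not test the node fits, the contrasts across tissues or the muscle slopes. Promoter windows of 300 bases came from RefSeq and were searched with Python 3.11.15.

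The members and the lists were chosen with earlier results of these data known. All 35 genes are named, with full values for those called at 2-fold or more between the knees and for the highest and lowest difference of each role, and at most 4 genes of any other list are named. Both sides of a bled rat come from 1 animal, per the labels, so rat pairs them. Their deviations from the group means correlated at −0.10 to 0.21 in the knee and 0.12 to 0.32 in the node over 11 pairs. The reported fits had no block, and fits with rat as a replicate block were alternatives. The others were the compared groups alone, quantile normalization, centring, a filter on dim probe sets, a trend with a robust prior, array weights, the mean of a gene's probe sets, a muscle covariate, and leaving out the sham arrays of C5, C2 and C9. Those arrays, the knee of C5 (5.94) and the nodes of C2 (5.93) and C9 (5.88), had the highest array medians, the others being at most 5.80. Leaving out the bled knee of K2 or the contralateral knee of K10 was added after seeing the data. Leaving out each array in turn was not done, since the groups hold 7 or more.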

Additional observations from a re-analysis of the deposited data

Results flagged for a closer look

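Of 56 sets of sham values tested for an array far from the rest (28 genes in each tissue), 14 held one. Chance gives about 1 in 20 for 1 set, but the genes of a tissue share their arrays. The 14 fell on 5 arrays, so their number cannot be set against that rate. The groups of 11 arrays were not tested. In the sham nodes, the array of C9 was far below the others for Slc2a1 (8.62), Slc2a3 (7.00), Slc16a1 (7.54), Gpi (11.38), Aldoa (9.63), Eno2 (6.82) and Hif1a (10.01). The sham node of C2 was far below for Slc16a3 (6.63), Pgk1 (9.24) and Ldhb (7.48), and that of C6 was far above for Hk3 (5.45). In the sham knees, C5 was far below for Pfkl (8.34) and Bnip3l (9.06), and C1 was far above for Ankrd37 (6.32).

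The difference between bled and contralateral side was larger in the knee than in the node, by limma's contrast of contrasts, for Slc2a1 (1.33), Slc2a3 (0.49), Slc16a1 (1.10), Slc16a3 (2.13), Hk2 (1.23), Hk3 (2.13), Gpi (0.34), Pfkl (0.90), Pfkfb4 (0.74), Pgk1 (1.11), Ldha (1.07), Hif1a (1.34) and P4ha1 (0.64). It was negative for Pfkfb3 (−0.39), Ldhb (−1.76) and Bnip3l (−0.27).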

How the results depend on the processing

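Over all genes and comparisons described above, 2285 values under an alternative kept their side of the threshold, 32 gained a call, 32 lost one and 0 called values reversed. The 2285 include values that were not called and could change sign, as Egln1 did without the bled knee of K2. The counts of genes moved by over 1.5 times as follows, and the cause was not tested. Without the bled knee of K2, 5 genes were lower than contralaterally in place of 3, 5 in place of 3 were negative in the difference between the tissues, and 2 in place of 1 were higher in the contralateral than in the sham knee. Of all 36685 probe sets, these counts were 5508 in place of 5586, 4518 in place of 4531 and 399 in place of 361. With only the compared groups in the fit, 2 genes were higher in the contralateral than in the sham knee, 1 in place of 2 was lower in the bled than in the sham knee, and 0 in place of 1 were higher in the bled-side than in the sham nodes. Over all probe sets these counts were 193 in place of 361, 6282 in place of 6908 and 411 in place of 701. With arrays centred on their medians there was 1 gene lower in the bled than in the sham knee, 3 higher in the bled-side than in the sham nodes, and 1 negative difference between the tissues. Over all probe sets these counts were 4933 in place of 6908, 938 in place of 701 and 4126 in place of 4531. Centring raised the share of higher among the called probe sets from 51.4% to 63.6% for bled against sham knees, from 54.2% to 74.5% for contralateral against sham knees, from 44.9% to 69.4% for bled-side against sham nodes and from 44.1% to 70.4% for contralateral against sham nodes. The arrays with the highest medians were sham arrays, the knee of C5 and the nodes of C2 and C9. In the bled-side against sham nodes, the replicate block gave 2 higher genes, the trend with a robust prior 2 and the filter on dim probe sets 3, which leaves Hk3 out. Over all probe sets tested, 757, 748 and 966 were higher under these settings, in place of 701. Without the sham arrays of C5, C2 and C9, 1 gene was lower in the bled than in the sham knee, 1 in place of 3 was higher in the contralateral than in the sham nodes, and 3 in place of 5 rose with muscle. Over all probe sets these counts were 6124 in place of 6908, 396 in place of 813 and 704 in place of 761. The muscle slope was called for 0 genes in bled knees alone, for 1 in contralateral knees alone and for 1 in sham knees alone, with fewer arrays in each. Beside the replicate block's calls for Ndrg1 and Pgk1 given above, the block added a slope on muscle for Slc16a3 (0.20, adjusted p = 0.0493) and changed no other call. The mean of a gene's probe sets could change no difference, since each gene had 1 probe set. Fitting only the compared groups also leaves each difference as it was and alters only its test. These values are among those counted above, so that tally overstates how far the differences were put to a test. Genes near the array medians, such as Car9, Ankrd37 and Hk3 in the nodes, are limited by their signal.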
